A study of Rattus norvegicus with 15 samples.

Results

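Cyp2e1 encodes cytochrome P450 2E1 and was measured by 1 probe set on rat heart arrays, TC0100002862.rn.2, the only one of the 23188 probe sets whose platform annotation gives that symbol (RefSeq NM_031543, chromosome 1). It is 1 gene of the 15037 distinct symbols on the array and stands beside 61 other cytochrome P450 genes. It was chosen because its level in the heart was so much higher after severe acute pancreatitis, so its own group differences are given as a description without a test. The arrays were hybridised with heart RNA of male Sprague-Dawley rats aged 8 to 10 weeks. There are 5 sham-operated rats, 5 rats 12 h after the onset of severe acute pancreatitis (SAP 12 h) and 5 rats 24 h after it (SAP 24 h). Pancreatitis was induced with 5% sodium taurocholate, a bile salt, infused backwards through the pancreatic and biliary ducts, which makes this a chemical, duct-borne model of the disease. The labels give no allele, strain cross or drug, and they do not give the hour after surgery or the time of day at which the sham hearts were taken. Some labels disagree: the series title and the extraction note speak of ischemia and reperfusion, that note also of mice and other hours, and the design text of a mouse array. The fields of the individual samples and the rat probe set names were followed.

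Cytochrome P450 2E1 is a heme enzyme anchored in the endoplasmic reticulum that takes electrons from NADPH through cytochrome P450 reductase, partly by way of cytochrome b5. It oxidises small molecules such as ethanol, acetone and paracetamol, and it readily leaks reactive oxygen while doing so. It is best known from the liver. There fasting, diabetes, ketone bodies and ethanol raise the enzyme in rats, in part by slowing its breakdown, and in rat hepatoma cells insulin lowers its mRNA.

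The promoter is shown because it is the stretch of DNA next to the transcript whose level differed so widely. It covers the 250 bases before the gene's start in RefSeq's GRCr8 assembly, at chr1:205269717-205269966 on the plus strand, and capitals mark the letters that matched a motif on either strand.
Cyp2e1 promoter: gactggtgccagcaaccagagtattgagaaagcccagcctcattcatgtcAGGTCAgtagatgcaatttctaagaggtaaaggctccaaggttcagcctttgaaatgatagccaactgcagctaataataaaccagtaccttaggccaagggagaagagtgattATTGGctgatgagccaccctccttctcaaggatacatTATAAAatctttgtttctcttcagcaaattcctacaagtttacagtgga
Read from the left, the capitals are AGGTCA, the half-site of many nuclear receptors, at 200 to 195 bases before the start. ATTGG, the reverse complement of CCAAT, lies at 86 to 82 bases before the start, and the TATA box TATAAA at 49 to 44. Of 33469 RefSeq rat promoters of the same length and searched on both strands, 14.1% held AGGTCA, 34.0% held CCAAT and 12.9% held TATAAA. The motifs do not overlap in Cyp2e1, and a match describes letters and no binding.

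The level of Cyp2e1, in log2 units as deposited, was 9.41, 9.09, 8.48, 10.01 and 8.31 in the sham hearts. The SAP 12 h hearts had 12.44, 12.90, 12.99, 10.79 and 13.28. The SAP 24 h hearts had 12.52, 14.75, 13.24, 14.39 and 13.74. Every pancreatitis heart therefore lay above every sham heart, while the hearts of the 12 h and 24 h groups overlapped. The lowest SAP 12 h heart was 0.78 above the highest sham heart, and the lowest SAP 24 h heart was 2.51 above it. Among all probe sets, 164 (0.707%) had every pancreatitis array above every sham array. The gene was picked for this pattern, so nothing is read from that share.

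The group means were 9.06 ± 0.69 in sham, 12.48 ± 0.99 at 12 h and 13.73 ± 0.89 at 24 h (log2, SD, n = 5 each). The difference was 3.42 ± 0.45 log2 (SE) between SAP 12 h and sham, which is 10.7-fold on a plain log2 scale. Between SAP 24 h and sham it was 4.67 ± 0.45 log2, or 25.4-fold. In order of size among the 23188 probe sets, the 12 h difference stood at place 4 and the 24 h difference at place 1. SAP 24 h minus SAP 12 h stood at place 18. The 2 times did not separate: SAP 24 h lay 1.25 ± 0.45 log2 above SAP 12 h (2.38-fold), but 3 of the SAP 12 h hearts were higher than the lowest SAP 24 h heart, and 3 of the SAP 24 h hearts exceeded the highest SAP 12 h heart. In whole-heart RNA, more cells of a type and more RNA per cell cannot be told apart.

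**Figure D1:**
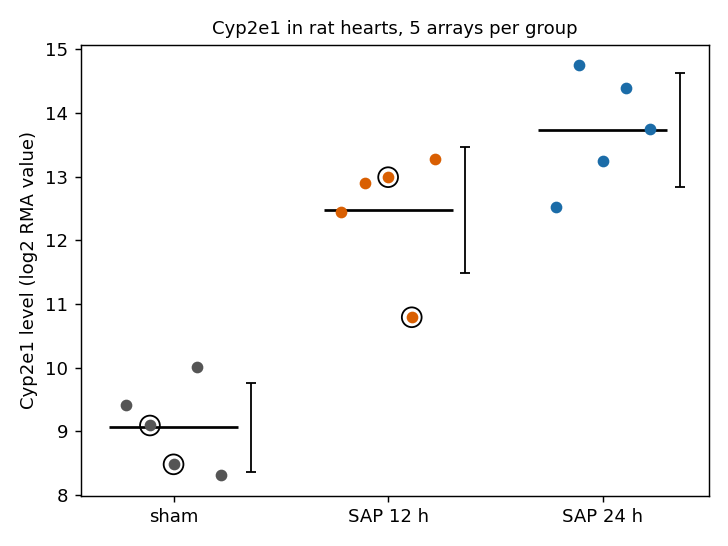
Level of Cyp2e1 (log2, vertical axis) in each of the 15 hearts by group, with 1 point per array, a line at the group mean and a bar for the SD. All SAP hearts lie above the highest sham heart at 10.01, the SAP 12 h heart at 10.79 stands well below the other SAP 12 h hearts, and rings mark the 4 arrays rich in atrial transcripts.

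Hearts of 1 group differed widely in Cyp2e1. The range within a group was 1.70 log2 in sham, 2.49 at 12 h and 2.23 at 24 h. The within-group SD was 0.87, against a median of 0.24 over all probe sets, and 128 probe sets (0.552%) had a larger one. SAP 12 h replicate 4, at 10.79, set much of the spread at 12 h. Without it, the 12 h mean was 12.90 ± 0.35 (SD, n = 4), the distance of SAP 12 h from sham was 3.84, and that of SAP 24 h from SAP 12 h was 0.83.

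The array medians ran from 5.90 to 5.98 log2, and each array correlated with the others of its group at a mean of 0.987 to 0.994 across probe sets. The values are named as RMA output, which includes quantile normalisation and so evens the medians. The correlations mostly reflect differences between probe sets, so neither value measures array quality. Markers of ventricular muscle had array means of 18.2 to 18.6 log2, so the heart label was met. Atrial transcripts were uneven. In 4 arrays, sham replicates 2 and 3 and SAP 12 h replicates 3 and 4, both Myl4 and Sln exceeded 12 log2, and the mean of 6 atrial markers was 12.6 to 17.0, whereas all SAP 24 h arrays lay between 6.79 and 7.66. Cyp2e1 was 12.99 and 10.79 in the atrial-rich SAP 12 h hearts, against 9.09 and 8.48 in the atrial-rich sham hearts. Without those 4 arrays the Cyp2e1 difference was 3.63 for SAP 12 h against sham and 4.48 for SAP 24 h against sham. With the atrial mean as a covariate these were 3.43 and 4.31. The difference of SAP 24 h from SAP 12 h, 1.25 with all arrays, was 0.85 without those 4 arrays and 0.88 with the covariate.

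Cyp2e1 is strongest in liver, and a heart sample can carry fat, so markers of both tissues were read beside it. Of 18 hepatocyte markers measured, 16 had a mean under 6 log2, a level below which 50.7% of all probe sets lay. In neither comparison with sham did limma call any of the 18 at adjusted p under 0.05 (1 at 12 h and 2 at 24 h had an unadjusted p under 0.05). Of all probe sets 4.92% were called at 12 h and 3.37% at 24 h. The mean of the hepatocyte list ran from 4.39 to 4.60 in sham hearts, from 4.46 to 4.63 at 12 h and from 4.49 to 4.64 at 24 h. Albumin, the main protein the liver secretes, averaged 4.92 ± 0.11 at 24 h and 4.52 in sham. The exceptions were the retinol carrier transthyretin (Ttr) and the tyrosine-degrading enzyme Hpd, which lay above 6 in all groups. The part of liver RNA in the Cyp2e1 level was not tested beyond these values.

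The white fat markers, 9 measured, had array means of 6.60 to 7.83 in sham hearts, 6.75 to 8.23 at 12 h and 6.80 to 6.96 at 24 h. Adiponectin (Adipoq), which fat cells secrete, averaged 4.57 ± 0.43 in SAP 24 h hearts and 7.73 ± 2.35 in sham hearts (SD, n = 5 each), and its difference did not pass (adjusted p = 0.126, limma). The mean of the fat list was highest in atrial-rich arrays (7.83 in sham replicate 3, 8.23 and 7.84 in SAP 12 h replicates 3 and 4), and no SAP 24 h array was atrial-rich. The part of fat in the Cyp2e1 level was not tested. Of the 9 white fat markers 1 rose and 0 fell at each time. Of all probe sets 2.35% rose at 12 h and 1.23% at 24 h. An unadjusted p under 0.05 was found for 2 markers at 12 h and 5 at 24 h, where differences ran from -3.16 to 1.35. The 1 called was hormone-sensitive lipase (Lipe), which fat cells and muscle both use. It rose by 1.13 log2 at 12 h (adjusted p = 0.00554) and by 1.35 at 24 h (adjusted p = 0.00247, limma). The brown fat protein Ucp1 lay at 3.50 at 24 h and 3.41 in sham. Of 5 brown fat markers measured, 1 rose at 12 h and 0 at 24 h, beside 2.35% and 1.23% of all probe sets. That marker was Cidea, which rose by 0.81 log2 at 12 h (adjusted p = 0.00784, limma). At 24 h Cidea stood 0.60 above sham without overlap (adjusted p = 0.062, limma). Macrophage markers had array means of 9.04 to 10.08 in SAP 12 h hearts, against 8.55 to 8.76 in sham hearts, and 5 of 10 rose at 12 h, beside 2.35% of all probe sets. The call of C1qc was lost in 11 and that of Adgre1 in 12 of 15 fits without 1 array. Without the 4 atrial-rich arrays those of C1qc, Adgre1 and Fcer1g were lost (adjusted p = 0.218, 0.385 and 0.0576). With only the 2 groups compared those of C1qc (0.0982) and Adgre1 (0.0725) were lost. Adgre1 also lost its call with centring on array medians (0.0535), repeated quantile normalisation (0.0532) and the replicate number as a block (0.054). At 24 h none of the 10 was called (1 had an unadjusted p under 0.05), with array means of 8.56 to 8.97. Whether inflammatory cells have a part in the Cyp2e1 level was not tested. Deviations of list means from their group means were set against those of Cyp2e1, without a test. Pearson r was 0.20 for hepatocyte, -0.30 for white fat, 0.08 for brown fat, -0.01 for macrophage and -0.15 for neutrophil markers. Over all marker lists it ran from -0.48 (fibroblast) to 0.33 (endothelial).

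Among the rest of the P450 superfamily 1 gene changed. The threshold was an adjusted p under 0.05 from a limma fit to all 15 arrays, at which 4.92% of all probe sets were called for SAP 12 h against sham and 3.37% for SAP 24 h against sham. Of the 61 other P450 genes, 0 were called at 12 h (2 had an unadjusted p under 0.05) and 1 at 24 h (5 unadjusted). Their median difference was 0.00 log2 at 12 h and 0.04 at 24 h, beside 0.01 and 0.02 over all probe sets. Both shares lie below those of all probe sets, and 51 of these genes had a mean level under 6 log2, where small changes are hard to see.

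The closest relatives of Cyp2e1, the 27 other genes of family 2, had mean levels between 3.19 and 7.44, and limma called none in any comparison (0, 2 and 5 had an unadjusted p under 0.05 for 12 h against sham, 24 h against sham and 24 h against 12 h). The highest was Cyp2j4, a relative of the epoxygenases that act on arachidonic acid, with 7.28 ± 0.21 at 24 h and 7.39 ± 0.34 in sham. Cyp2c11, the main male-specific P450 of rat liver, averaged 4.39 at 24 h and 4.13 in sham. In all, the differences of these genes from sham ran from -0.22 to 0.30 at 12 h and from -0.18 to 0.38 at 24 h, against 3.42 and 4.67 for Cyp2e1. For SAP 24 h against SAP 12 h limma called 0 of the 61 P450 genes (9 had an unadjusted p under 0.05), beside 0.69% of all probe sets, 0.121% higher and 0.569% lower.

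**Figure D2:**
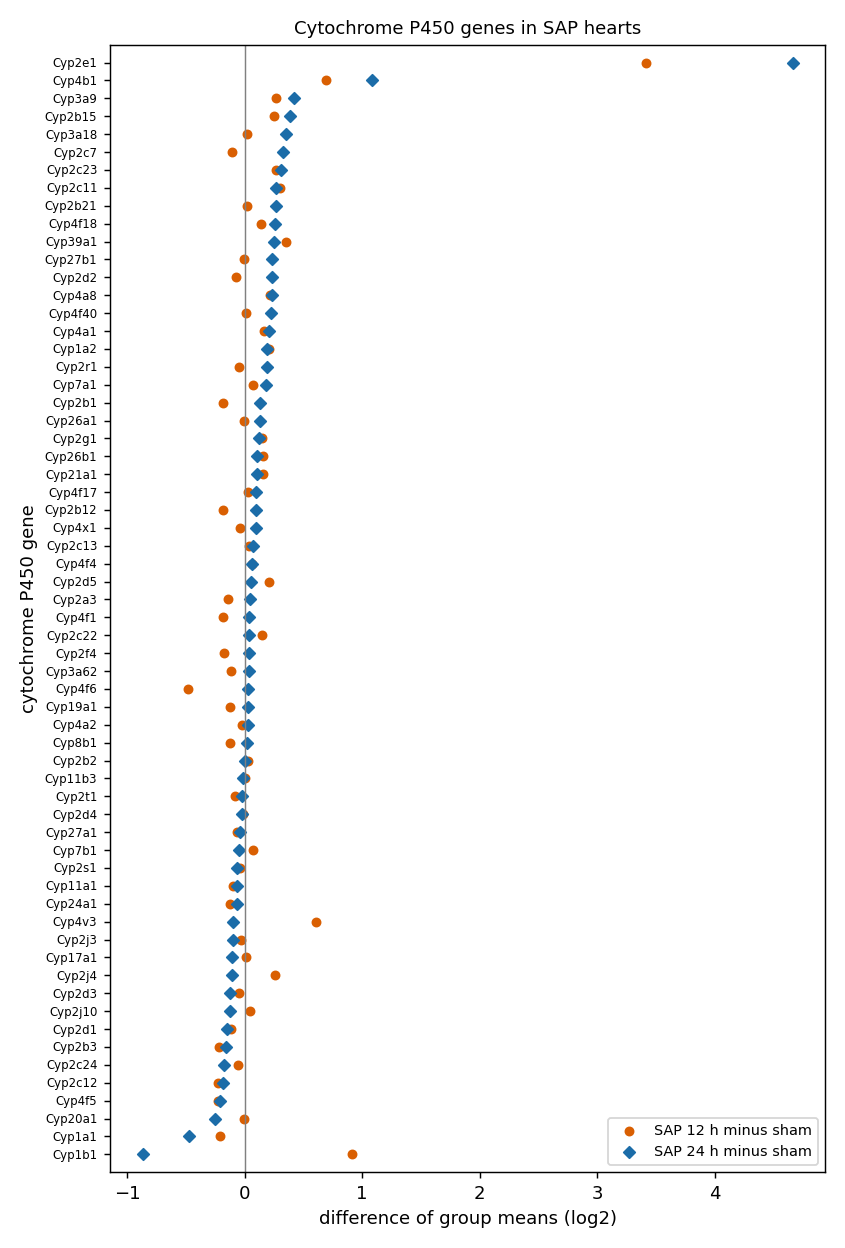
Log2 difference from sham (horizontal axis) of Cyp2e1 and the other P450 genes, with circles for SAP 12 h and diamonds for SAP 24 h. Cyp2e1 stands alone at 3.42 and 4.67, whereas the other genes lie between -0.87 and 1.08.

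The 1 other P450 gene that rose was Cyp4b1, a family 4 enzyme best known from the lung. Its levels were 10.79, 10.66, 11.05, 10.67 and 10.79 in SAP 24 h hearts, against 9.92, 9.48, 9.38, 9.99 and 9.78 in sham hearts. These groups did not overlap, and the difference was 1.08 ± 0.22 log2, or 2.12-fold (adjusted p = 0.00969, limma). At 12 h the hearts had 10.50, 11.35, 10.09, 9.73 and 10.34, a difference of 0.69 ± 0.22 that did not pass (adjusted p = 0.084). Cyp1b1, a P450 of estrogens and aromatic hydrocarbons, differed by 0.91 at 12 h (adjusted p = 0.42) and by -0.87 at 24 h (adjusted p = 0.424), and SAP 12 h replicate 3 alone reached 10.33. Cyp4f6 fell short of the threshold with -0.48 at 12 h (adjusted p = 0.115).

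The 6 genes next to Cyp2e1 in RefSeq order that had a probe set showed no called difference. These are the odorant receptor genes Or13a25, Or13a26b and Or13a26 on one side and Syce1, Urah and Scgb1c1 on the other. Their means lay between 3.49 and 4.45 log2, their differences from sham between -0.14 and 0.20, and limma called none (lowest adjusted p 0.469). Of all probe sets 4.92% were called at 12 h and 3.37% at 24 h, so nothing is read from that count.

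A P450 needs electrons and heme. Of 5 electron donor genes limma called 1, lower, at 12 h, beside 2.57% of all probe sets lower, and 0 at 24 h (1 had an unadjusted p under 0.05). Por, the reductase that feeds all microsomal P450s, had 9.38, 10.19, 10.16, 9.47 and 9.94 in SAP 12 h hearts, against 10.47, 10.10, 10.22, 10.90 and 10.50 in sham hearts. It fell by 0.61 ± 0.17 log2 at 12 h (adjusted p = 0.0479, limma). Dropping single arrays ended that call in 12 of 15 cases (adjusted p up to 0.133, without sham replicate 4), and at 24 h the difference was -0.04 (adjusted p = 0.942). The b5 carrier Cyb5a stood at -0.32 at 12 h and -0.72 at 24 h (adjusted p = 0.0985 at 24 h).

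Alas1 makes the first and rate-limiting step of heme synthesis outside red cells. It was 13.40, 13.69, 14.39, 13.84 and 13.95 in sham hearts, 12.85, 13.23, 11.87, 12.82 and 12.03 at 12 h, and 12.63, 11.83, 12.89, 12.53 and 12.40 at 24 h. No pancreatitis heart reached the lowest sham heart. Alas1 fell by 1.29 ± 0.25 log2 at 12 h (adjusted p = 0.00443) and by 1.40 ± 0.25 at 24 h (adjusted p = 0.00421, limma). Without the 4 atrial-rich arrays the adjusted p at 12 h was 0.0909. Alas1 was the 1 gene called of 12 heme genes measured, at both times, beside 4.92% of all probe sets at 12 h and 3.37% at 24 h.

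Factors that bind or sense near P450 genes in the liver did not pass in these hearts. Of 12 measured, limma called none in any comparison, and 1 at 12 h and 0 at 24 h had an unadjusted p under 0.05. Of all probe sets 4.92% were called at 12 h, 3.37% at 24 h and 0.69% between the times. With 12 genes and shares this small, nothing is read from that count. A mean under 6 log2 was found for 7 of the 12. Hnf4a, a master factor of hepatocytes, had a mean of 3.35 log2 over all arrays, and the xenobiotic receptors Nr1i2 and Nr1i3 had 3.74 and 5.03. The beta-catenin gene Ctnnb1 differed by -0.03 at 12 h and -0.16 at 24 h. Cyp2e1 protein is broken down through ubiquitin. Of 7 genes of that machinery the conjugating enzyme Ube2d1 fell by 1.00 ± 0.17 log2 at 12 h (adjusted p = 0.00155, limma) and differed by -0.44 at 24 h (adjusted p = 0.181), whereas the ligase Stub1 differed by 0.11 and -0.10. Without the atrial-rich arrays the adjusted p of Ube2d1 at 12 h was 0.0886.

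**Figure D3:**
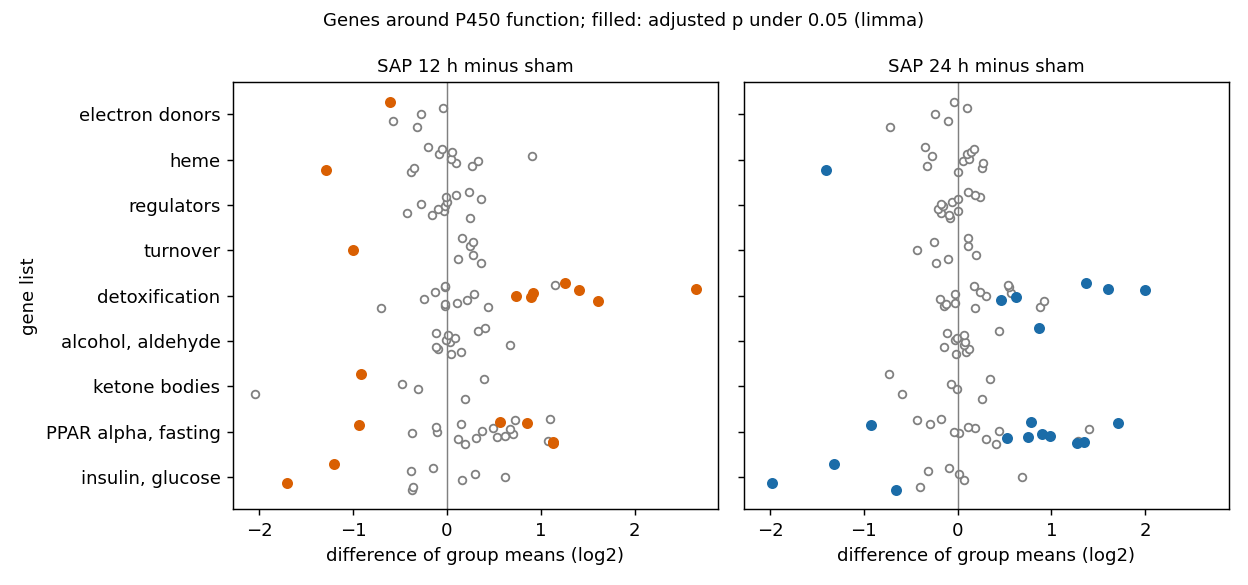
Log2 differences from sham (horizontal axis) of the members of the pathway lists around Cyp2e1, with filled symbols for adjusted p under 0.05. Conjugating enzymes lie mostly to the right, with Mgst1 at 2.65 for SAP 12 h, whereas the regulators lie within -0.42 and 0.36.

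The enzymes that conjugate and clear reactive products rose as a set more often than they fell. Of 19 measured, 7 rose and 0 fell at 12 h, beside 2.35% and 2.57% of all probe sets. At 24 h 5 rose and 0 fell, beside 1.23% and 2.14%. The median difference was 0.29 log2 at 12 h and 0.47 at 24 h. When 1 array was left out, the 24 h count was between 3 and 6. It was 3 without sham replicate 3, 4 or 5 and without SAP 24 h replicate 1, 2, 3 or 5.

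Mgst1, a glutathione transferase in the membranes of the endoplasmic reticulum and mitochondria, was the one that moved most. Its levels were 10.08, 10.71, 10.71, 10.33 and 10.67 in sham hearts, 13.21, 13.21, 13.25, 13.37 and 12.73 at 12 h, and 11.68, 12.08, 11.71, 11.99 and 13.04 at 24 h. It rose by 2.65 ± 0.22 log2 at 12 h (adjusted p = 3.59e-06) and by 1.60 ± 0.22 at 24 h (adjusted p = 0.000434, limma). Its mean was higher at 12 h than at 24 h: SAP 24 h minus SAP 12 h was -1.05 (adjusted p = 0.0286, limma), a call lost in 7 of 15 fits without 1 array (adjusted p up to 0.0853) and without the 4 atrial-rich arrays (0.181).

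Gstt2, a theta-class transferase, rose at both times. It had 10.48, 11.13, 11.08, 10.80 and 11.18 in SAP 24 h hearts, against 9.23, 9.08, 8.66, 8.88 and 8.82 in sham hearts, with no overlap. It rose by 1.41 log2 at 12 h (adjusted p = 0.000907) and by 2.00 at 24 h (adjusted p = 7.72e-05, limma). SAP 24 h minus SAP 12 h was 0.59 and did not pass (adjusted p = 0.246, limma). The sulfotransferase Sult1a1 rose by 1.26 (adjusted p = 8e-04) and 1.37 (adjusted p = 0.000624). Gsta1 rose by 1.62 at 12 h (adjusted p = 0.00345) and differed by 0.92 at 24 h (adjusted p = 0.105), and Gstp1 by 0.92 (adjusted p = 0.017) and 0.57 (adjusted p = 0.176). Gstm1 rose by 0.89 at 12 h (adjusted p = 0.00203) and 0.62 at 24 h (adjusted p = 0.035), and the 24 h call was lost in 8 of 15 fits without 1 array. The 12 h call of Gsta1 was lost without the atrial-rich arrays (adjusted p = 0.0918), and that of Gstp1 without sham replicate 5 or SAP 12 h replicate 1. These transferases have close copies in the genome, and probes may share signal between them.

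Of 12 other enzymes that handle ethanol and aldehydes, 0 were called at 12 h (limma, 2 with an unadjusted p under 0.05), beside 4.92% of all probe sets. At 24 h, where 3.37% of all probe sets were called, the 1 that rose was catalase (Cat), the peroxisomal enzyme that removes hydrogen peroxide and can also oxidise ethanol. Cat had 16.97, 17.06, 16.92, 17.00 and 17.20 in SAP 24 h hearts, against 16.07, 16.30, 15.93, 16.57 and 15.94 in sham hearts. It rose by 0.87 ± 0.14 log2 at 24 h (adjusted p = 0.00141) and differed by 0.40 at 12 h (adjusted p = 0.109, limma). The mitochondrial aldehyde dehydrogenase Aldh2 differed by 0.01 and 0.07, Adh5 by 0.15 and 0.09, and Aldh9a1 by 0.33 and 0.44. Aldh1a1, which oxidises retinal, differed by 0.67 at 12 h (adjusted p = 0.221) and 0.06 at 24 h.

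Fasting and low insulin raise Cyp2e1 in rat liver, so genes tied to those states were counted. Of 21 fatty acid and fasting genes, 4 rose and 1 fell at 12 h, and 8 rose and 1 fell at 24 h. Of all probe sets 2.35% rose and 2.57% fell at 12 h, and 1.23% rose and 2.14% fell at 24 h. The list had median differences of 0.53 and 0.44 log2. The fatty acyl-CoA thioesterase gene Acot2 rose by 1.13 at 12 h (adjusted p = 4.31e-05) and 1.35 at 24 h (adjusted p = 1.74e-05, limma), and Acot1, a near copy whose probes may share its signal, by 1.13 and 1.28. The fatty acid transporter Slc27a1 had 11.41, 11.93, 11.32, 11.36 and 11.16 in SAP 24 h hearts, against 9.84, 8.86, 9.86, 9.78 and 10.27 in sham hearts. It rose by 1.71 (adjusted p = 0.00046), and by 0.86 at 12 h (adjusted p = 0.0414), where the call was lost in 11 of 15 fits without 1 array.

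Txnip, which curbs glucose uptake, rose by 0.57 at 12 h (adjusted p = 0.0253) and 0.78 at 24 h (adjusted p = 0.00468, limma). The carnitine transferase Cpt1b and the beta-oxidation enzyme Ech1 rose at 24 h, by 0.53 (adjusted p = 0.0219) and 0.99 (adjusted p = 0.0228). The gene that fell was Ppara, the receptor of fatty acids itself, named here after its values were seen, by 0.94 at 12 h (adjusted p = 0.0277) and 0.92 at 24 h (adjusted p = 0.0407), and these calls were lost in 6 and 9 of 15 fits without 1 array. The 12 h call of Txnip and the 24 h call of Cpt1b were each lost in 4 such fits and that of Ech1 in 5. Without the 4 atrial-rich arrays the 12 h calls of Slc27a1 (adjusted p = 0.395) and Txnip (0.326), the 24 h calls of Cpt1b (0.127) and Ech1 (0.131) and both calls of Ppara (0.446 and 0.203) were lost. SAP 12 h replicate 2 decided the 12 h count: without it 12 of the 21 genes rose. Without sham replicate 4 or SAP 12 h replicates 1 or 3 the count was 2. The 24 h count ran from 4 to 11 and was 5, 4 and 5 without sham replicate 2, sham replicate 3 and SAP 24 h replicate 5.

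Of 9 genes of insulin signalling and glucose uptake, 2 fell at 12 h and 3 at 24 h and none rose, beside 2.57% of all probe sets lower at 12 h and 2.14% at 24 h. Hk2, the hexokinase of muscle, had 10.62, 10.58, 10.08, 10.84 and 10.60 in sham hearts, 8.24, 10.55, 8.59, 8.16 and 8.66 at 12 h, and 8.31, 8.39, 9.11, 8.71 and 8.31 at 24 h. It fell by 1.70 log2 at 12 h (adjusted p = 0.00451) and by 1.98 at 24 h (adjusted p = 0.00256, limma). Slc2a4, the insulin-responsive glucose transporter, fell by 1.21 (adjusted p = 0.00336) and 1.32 (adjusted p = 0.00295). Akt2, a kinase of the insulin signal, fell by 0.65 at 24 h (adjusted p = 0.014) and differed by -0.37 at 12 h (adjusted p = 0.171). The insulin receptor gene Insr stood 0.62 above sham at 12 h (adjusted p = 0.198) and 0.69 above it at 24 h (adjusted p = 0.142). Without the atrial-rich arrays Hk2 at 12 h (adjusted p = 0.0785) and Akt2 at 24 h (0.0954) did not pass.

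Single hearts, picked after their values were seen, are given here as values. SAP 12 h replicate 2 lay at sham-like levels for Hk2 (10.55) and Slc2a4 (13.78), and its Cyp2e1 was 12.90. Its Ech1 (16.13) lay below the lowest sham heart (16.48). SAP 12 h replicate 4, with the lowest Cyp2e1 of the group, had the lowest Hk2 of it. The within-group fit on Cyp2e1 given below covered these genes too and called no probe set at adjusted p under 0.05. On simulated data that fit recovered only 22% of probe sets following Cyp2e1 at r = 0.8, so nothing is read from it for these genes. Among 6 ketone body genes, the monocarboxylate carrier Slc16a7 fell by 0.91 at 12 h (adjusted p = 0.0277, lost without sham replicate 3 or 5 or SAP 12 h replicate 2, and 0.125 without the atrial-rich arrays) and differed by -0.74 at 24 h (adjusted p = 0.0949, limma). Oxct1, which starts the use of ketone bodies in the heart, differed by -0.48 and -0.07.

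**Figure D4:**
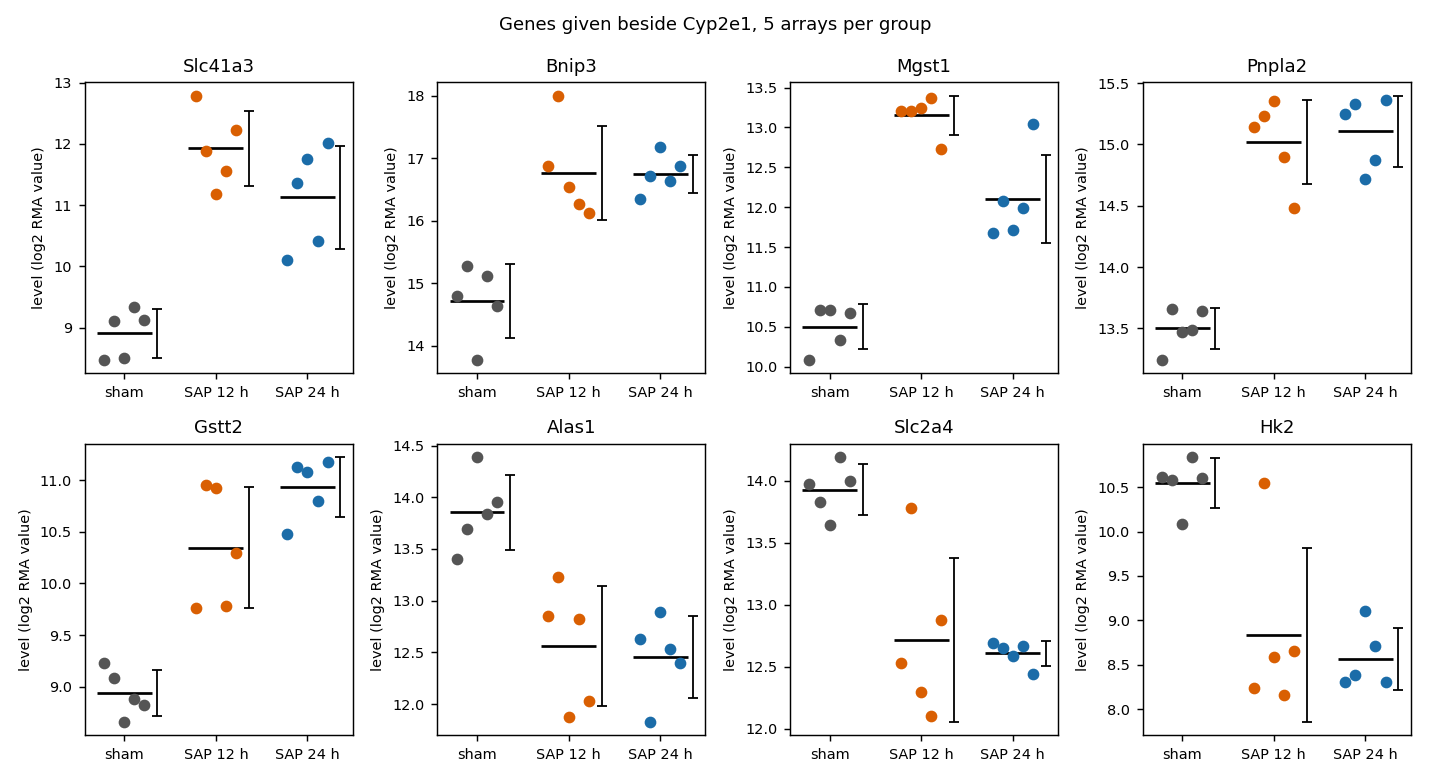
Levels (log2, vertical axes) of 8 genes by group, with 1 point per array. Slc41a3, Bnip3, Mgst1, Pnpla2 and Gstt2 stand higher in both SAP groups than in sham, and Alas1, Slc2a4 and Hk2 lower, apart from SAP 12 h replicate 2 for Slc2a4 and Hk2.

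Other named genes held a rise at both times without overlap with sham. The 5 with the largest smaller rise of the 12 h and 24 h values, after Cyp2e1, were Slc41a3, Bnip3, Mgst1, Pnpla2 and Ptgfr. They were chosen by these differences, so their values are a description. Slc41a3, a magnesium transporter, had 8.47, 9.11, 8.50, 9.34 and 9.13 in sham hearts, 12.79, 11.88, 11.19, 11.56 and 12.22 at 12 h, and 10.10, 11.36, 11.75, 10.41 and 12.02 at 24 h. Its rises were 3.02 and 2.22 log2, so it was highest at 12 h. Bnip3, a mitophagy receptor of the outer mitochondrial membrane, stood 2.04 and 2.03 above sham. Pnpla2, the lipase that opens stored triglyceride, stood 1.52 and 1.61 above it, and the prostaglandin F receptor gene Ptgfr by 1.49 at both times. Among these 5 genes, picked by their rises over sham, none had a 24 h mean as far above its 12 h mean as Cyp2e1 did. Over all 23188 probe sets Cyp2e1 stood at place 18 in that difference, and its hearts of the 2 times overlapped.

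Genes that vary with Cyp2e1 between hearts of the same group were sought next. Each value was taken as a deviation from its group mean, which removes the mean differences between groups that chose the gene. Differences between rats of 1 group, including any in how severe the pancreatitis was, remain in the deviations. In Cyp2e1 these deviations ran from -0.75 to 0.95 in sham, from -1.69 to 0.80 at 12 h and from -1.21 to 1.02 at 24 h. In a limma fit over the 23187 other probe sets, 0 followed Cyp2e1 at adjusted p under 0.05 (0% called, smallest adjusted p 0.949), and 1198 (5.17%) had an unadjusted p under 0.05. The genes below are therefore the most alike by rank among 5790 probe sets with a symbol, a mean of at least 6 and a within-group SD of at least 0.2 log2. None is shown to follow Cyp2e1, and each correlation is over 15 arrays.

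Atp6v1h, a subunit of the vacuolar proton pump, was most alike, with Pearson r = 0.88 and Spearman rho = 0.93. Within sham, SAP 12 h and SAP 24 h hearts its r was 0.92, 0.84 and 0.94. Without the 2 hearts farthest from the median in Cyp2e1, SAP 12 h replicate 4 and SAP 24 h replicate 1, it was 0.82. The same 2 hearts were low in all of the genes that ran with Cyp2e1: Atp6v1h stood at -0.26 and -0.41 from its group means there.

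Pus7, a pseudouridine synthase, had r = 0.85 and rho = 0.84 (0.77 without the 2 hearts). Gstz1, a zeta-class transferase that works in tyrosine breakdown, had r = 0.82 and rho = 0.79 (0.73 without them), with r = 0.96 within the sham group and 0.68 at 12 h. Clec1b, the platelet lectin receptor, had r = 0.80. Zfp217, Trafd1, Gpalpp1 and the dystrophin gene Dmd came next with r of 0.79 to 0.80, and without the 2 hearts their r was 0.50, 0.56, 0.57 and 0.59. Clec1b kept r = 0.70 without them.

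Genes that ran opposite were led by Kdelr3, a receptor that returns proteins to the endoplasmic reticulum, with r = -0.82 and rho = -0.75 (-0.60 without the 2 hearts). Sec22b, a membrane fusion protein between the endoplasmic reticulum and the Golgi, had r = -0.80 and rho = -0.84 (-0.69 without them). The splicing factor gene Sf3b5 had r = -0.78 (-0.61 without them), and Ldha, the lactate dehydrogenase of glycolysis, r = -0.78 (-0.56 without them). None of the 12 passed in any of the 3 group comparisons, and the lowest adjusted p was 0.0515, for Ldha at 24 h against sham (limma). Of all probe sets 4.92% were called at 12 h, 3.37% at 24 h and 0.69% between the times. With 12 genes, nothing is read from that count.

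**Figure D5:**
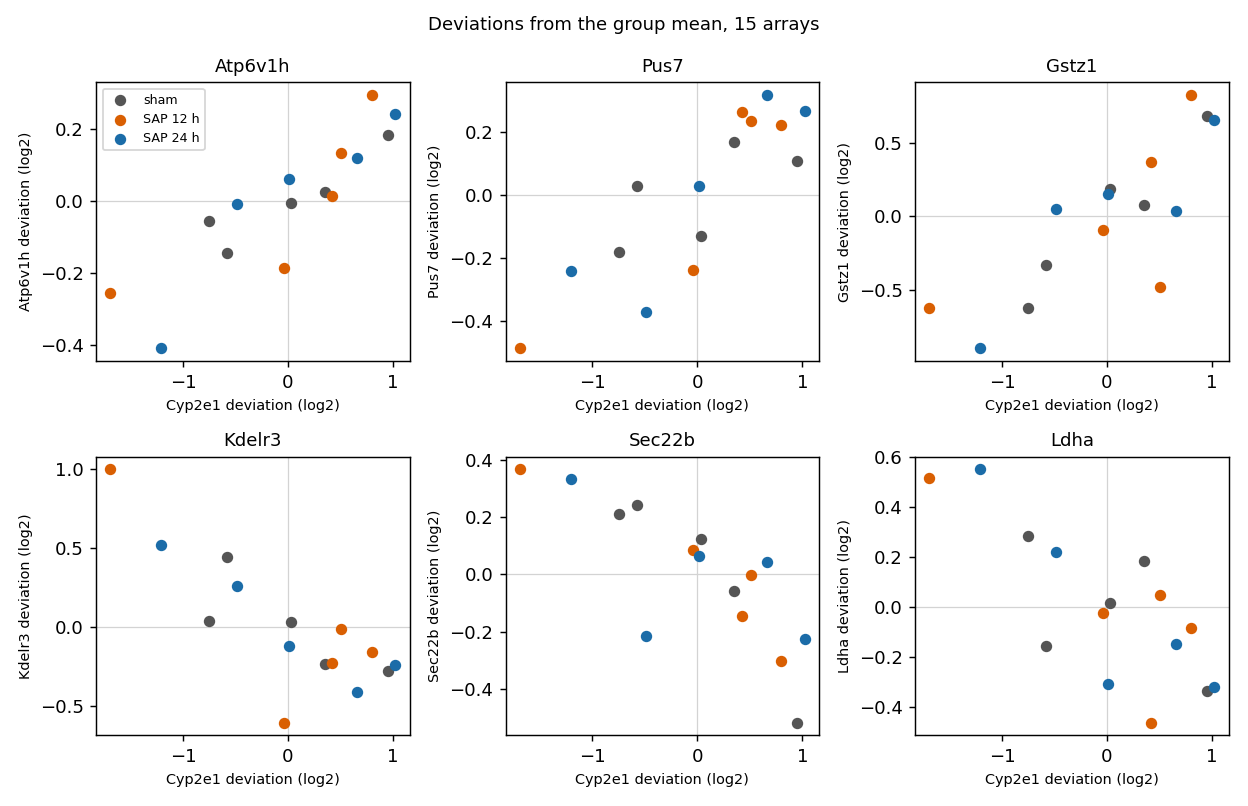
Deviation from the group mean of 6 genes (log2, vertical axes) against that of Cyp2e1 (log2, horizontal axes), with 1 point per array coloured by group. Atp6v1h, Pus7 and Gstz1 run upwards with r of 0.82 to 0.88 and Kdelr3, Sec22b and Ldha downwards with r of -0.82 to -0.78, and SAP 12 h replicate 4 lies at the left end at -1.69.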

How the data were processed

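The authors deposited 1 log2 value per probe set and array for 15 arrays. Affymetrix Expression Console was used, per the submitters' processing notes, with no version given in the sources used here. The name of the deposited table gives RMA (background correction, quantile normalisation and median polish), and the log2 scale rests on that name. Depth has no counterpart on arrays, so their number limits the precision. Nothing names a batch, so none could be tested, and the p-values measure the spread between these hearts. Of 23188 probe sets, 15049 had 1 symbol in GEO's platform annotation and 8139 are unnamed here; the probe set with the highest mean stood for a gene.

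Group means were fitted with limma 3.58.1 in R 4.3.3 (lmFit, eBayes) to all arrays, with Benjamini-Hochberg adjustment over all probe sets and no filter. A second fit added the Cyp2e1 level to the group means. The fits were tested on simulated data: for SAP 12 h against sham 86% of changes of 1 log2 were recovered, and of probe sets following Cyp2e1 at r = 0.8 22%.

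The named genes are Cyp2e1, the 8 most and 4 least alike within groups, the 5 largest sustained rises, and up to 6 called members of each list. Members, lists and tests were chosen with earlier results of these data known. Others, such as Ppara, Cyp1b1, Cyp4f6, Alb, Adipoq, Ucp1, Hnf4a, Cyb5a, Aldh2, Oxct1 and Stub1, were picked after their values were seen. Alternatives were centring, repeated quantile normalisation, filters on low values, trend and robust settings, the replicate block, only the compared groups, the atrial markers as a covariate, no atrial-rich arrays and each array left out.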

Additional observations from a re-analysis of the deposited data

Results flagged for a closer look

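In groups of 5 arrays, 12 of 168 groups checked over 56 genes (7.14%) held 1 array far from the rest, and chance gives about 1 in 20. SAP 12 h replicate 2 stood apart for Hk2 (10.55, nearest other 8.66), Ech1 (16.13, nearest 17.42), Ube2d1 (12.41, nearest 11.62) and Slc16a7 (6.40, nearest 7.18). SAP 24 h replicate 2 stood apart for Slc16a7 (6.56, nearest 7.33) and the cardiac actin gene Actc1 (18.64, nearest 19.00), and SAP 24 h replicate 4 for Cpt1b (15.84, nearest 16.06) and Lipe (9.0, nearest 9.46). Mgst1 was low in SAP 12 h replicate 5 (12.73, nearest 13.21), and the atrial light chain gene Myl7 was high in SAP 24 h replicate 5 (11.30, nearest 7.03). In sham, Actc1 was low in replicate 3 (19.07, nearest 19.45) and Cd68 in replicate 1 (6.78, nearest 7.05). Cyp2e1 had no such array in any group, and SAP 12 h replicate 4 at 10.79 did not meet the criterion.

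The responses at 24 h and 12 h differed by the limma test of SAP 24 h minus SAP 12 h for 6 of these genes. The difference was -1.05 log2 for Mgst1 (adjusted p = 0.0286). Of 10 macrophage markers limma called 4 lower at 24 h than at 12 h, beside 0.569% of all probe sets lower. The differences were -1.56 for Cd14 (adjusted p = 0.00306), -1.21 for C1qb (adjusted p = 0.00378), -0.80 for C1qc (adjusted p = 0.0165) and -0.74 for Cd68 (adjusted p = 0.0408). Tcf21, a fibroblast marker, differed by -0.96 (adjusted p = 0.0263). Leaving out 1 array ended the call of Cd68 in 11 of 15 fits, of Tcf21 in 5, of Mgst1 in 7 and of C1qc in 1. Cd68 also lost its call with centring (adjusted p = 0.0521), repeated quantile normalisation (0.0502), the atrial covariate (0.195) and no atrial-rich arrays (0.282). With the covariate and without the atrial-rich arrays the adjusted p was 0.124 and 0.181 for Tcf21, 0.0712 and 0.0507 for C1qc, and 0.137 and 0.181 for Mgst1.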

How the results depend on the processing

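The Cyp2e1 differences kept their direction under every setting run. Leaving out 1 array in turn gave 3.22 to 3.84 log2 for SAP 12 h against sham, 4.41 to 4.97 for SAP 24 h against sham and 0.83 to 1.55 for SAP 24 h against SAP 12 h; centring on array medians gave 3.40, 4.65 and 1.25, and repeated quantile normalisation 3.40, 4.72 and 1.33. The labels number replicates alike in each group and do not say whether the numbers pair the hearts. Same-numbered arrays had correlations of deviations from -0.17 to 0.26, with 2 of 15 over 0.1. Such values cannot show how the hearts were matched. With the replicate number as a block Cyp2e1 differed by 3.42, 4.67 and 1.25, and 3 conjugating enzymes rose at 24 h instead of 5. Counts of called probe sets moved more. Without the 4 atrial-rich arrays 598 were called at 12 h, 500 at 24 h and 85 between the times; with the atrial covariate 503 at 24 h and 83 between the times; and with only the groups compared 1230 at 24 h and 75 between the times, against 1140, 782 and 160. Without 1 array in turn the counts were 786 to 1202, 420 to 1001 and 73 to 398, and 0 to 1 probe sets followed Cyp2e1 (1 without SAP 12 h replicate 3). Other P450 genes that rose numbered 1 at 12 h with the atrial covariate, 0 to 1 without 1 array (1 without SAP 12 h replicate 4) and 1 to 1 at 24 h. Fasting genes that rose numbered 2 at 12 h both without the atrial-rich arrays and with only the groups compared, 5 at 24 h with the covariate and 4 without those arrays, and 2 to 12 at 12 h and 4 to 11 at 24 h without 1 array; the 1 that fell was lost (0) in those fits and in some without 1 array (0 to 1). Conjugating enzymes that rose numbered 3 at 24 h with the covariate and 3 without the atrial-rich arrays, and 5 to 8 at 12 h and 3 to 6 at 24 h without 1 array. Of 66 calls of 43 named genes, 24 were lost without the atrial-rich arrays, 12 with the covariate, 11 with only the groups compared, 7 with the block, 4 with repeated quantile normalisation, 2 with centring and 2 with trend and robust settings; 0 reversed. Fewer arrays also mean lower power, and beyond that the cause was not tested. Many P450 and liver genes lie under 6 log2, where an array shows small differences poorly.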

Other observations

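Transcripts of neutrophils and matrix cells, read as markers beside Cyp2e1, also moved. Of 9 neutrophil markers measured, 3 rose at 12 h and 1 at 24 h (limma, adjusted p under 0.05), beside 2.35% and 1.23% of all probe sets. The collagenase gene Mmp8 rose by 1.38 log2 at 12 h (adjusted p = 0.000667) and 1.05 at 24 h (adjusted p = 0.00852). S100a9, a calcium-binding protein of neutrophils, rose by 3.20 at 12 h (adjusted p = 0.00227) and differed by 1.91 at 24 h (adjusted p = 0.0705). Of 8 fibroblast markers, 1 rose at 12 h and 1 fell at 24 h, with a median difference of -0.81 at 12 h and -1.07 at 24 h, beside 2.35% of all probe sets higher at 12 h and 2.14% lower at 24 h. The 12 h call, Tcf21, was lost without the 4 atrial-rich arrays (adjusted p = 0.372). The 24 h call, the collagen gene Col1a2, was lost in 8 of 15 fits without 1 array and with the atrial covariate (adjusted p = 0.149). The fibroblast mean was 12.15 and 11.92 in the atrial-rich SAP 12 h hearts and 11.93 and 12.48 in the atrial-rich sham hearts. The mitochondrial and lipid droplet protein Cidea, listed as a brown fat marker, rose by 0.81 at 12 h (adjusted p = 0.00784; 0.14 without the 4 atrial-rich arrays). Bdh1, which interconverts the ketone bodies and was looked at after its values were seen, stood at 13.97 in SAP 12 h replicate 2, against 8.06 to 10.11 in the other SAP 12 h hearts, and its difference from sham of -2.05 did not pass (adjusted p = 0.171). Without the filters on level and spread, the 8 genes most like Cyp2e1 within groups would have included Usp30 (r = 0.88, mean 5.92) and Piwil1 (r = 0.81, mean 3.71), and the other 6 were the same.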
